A study of Mus musculus with 16 samples.

Results

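Mouse mammary tumors that received the TGFb inhibitor IPW-5371 together with a single focal dose of radiation (TGFbi+RT, 3 tumors) were compared with tumors that received the same radiation alone (RT, 3 tumors), across 16017 genes. These 6 tumors are part of 16 libraries: 15 tumors in 5 groups of 3, and 1 internal reference library that was left out. TGFbi+RT mice were given IPW-5371, a small molecule, at 20 mg/kg daily by intraperitoneal injection from 24 hours before 10 Gy. RT mice received 10 Gy, and the labels name no antibody or inhibitor for them. Tumors with the inhibitor alone (TGFbi) and Sham tumors, for which the labels describe an IgG control antibody, served for a further contrast, and a triple group received IPW-5371, radiation and anti-PD-L1. All 15 tumors were Trp53 null transplants of a single tumor family (family F, second transplant generation), transplanted orthotopically into BALB/cJ females aged 8 to 10 weeks. They were enrolled at 65 to 100 mm3 and frozen 7 days after treatment. The transplanted tumor cells and the host's stroma and immune cells were sequenced together, so fewer cells of a type and less RNA per cell cannot be told apart.

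Transforming growth factor beta is a secreted cytokine that is stored in the matrix in a latent form, and radiation is one of the stimuli that activate it. The active ligand binds the type II and type I receptors (Tgfbr2, Tgfbr1), which phosphorylate Smad2 and Smad3, and these enter the nucleus and raise target genes, among them feedback inhibitors such as Pmepa1. In tumors the pathway is known for driving fibroblasts to lay down matrix, for holding back T cells and natural killer cells, and for supporting DNA repair after irradiation. A small molecule inhibitor of the receptor kinases acts on the signal and need not change the level of the ligand or receptor transcripts.

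Before any comparison, several features of the 6 libraries have to be stated. By the library names in the labels, all 3 TGFbi+RT libraries carry the code A2301 and all 3 RT libraries the code A2304, so treatment and library code cannot be told apart in this contrast. TGFbi+RT replicate 3 is marked as resubmitted. Total counts were 11588238 to 13241308 in TGFbi+RT and 14568091 to 15503134 in RT. On the first principal component of the 6 tumors, which held 59.9% of the variance, TGFbi+RT replicate 3 lay at -102 and replicates 1 and 2 at -7.22 and 2.56, while the RT replicates lay at -21.2, 53.2 and 74.6. TGFbi+RT replicate 3 therefore stood apart from its group, as did RT replicate 1 from the other RT tumors to a smaller extent. Results below are given with and without TGFbi+RT replicate 3 wherever they rest on it. Trp53 itself was counted at 82.1, 96.6 and 63.9 CPM (read counts scaled to library size) in TGFbi+RT and 74.2, 77.1 and 79.6 CPM in RT, a log2 fold change of 0.07 ± 0.19 (SE). Gene-level counts do not say which exons were read, so these values do not check the null label. The basal keratin Krt5 stood at 347 to 748 CPM in TGFbi+RT and 351 to 418 CPM in RT, and the epithelial adhesion gene Epcam at 110 to 157 CPM in TGFbi+RT and 140 to 203 CPM in RT, so both groups held epithelial tumor tissue.

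No single gene passed the test. edgeR's quasi-likelihood test, fitted to all 15 tumors with Benjamini-Hochberg adjustment, called 0 of 16017 genes (0%) at an adjusted p under 0.05, and the smallest adjusted p was 0.314. At an unadjusted p under 0.05 the same test held 933 genes higher in TGFbi+RT (5.83%) and 608 lower (3.8%). limma-voom also called 0 genes, with 1386 at an unadjusted p under 0.05. DESeq2 called 63 genes, 47 higher (0.293%) and 16 lower (0.0999%), and for all 63 the 3 TGFbi+RT tumors did not overlap the 3 RT tumors. In 24 of the 47 higher calls TGFbi+RT replicate 3 was the highest of the 6. Over all genes, 1227 had every TGFbi+RT tumor above every RT tumor (7.66%) and 1328 had every one below (8.29%). Without TGFbi+RT replicate 3 these counts were 1977 (12.3%) and 2121 (13.2%), as fewer tumors overlap less often by construction. The median log2 fold change over all genes was 0.00. All fold changes below are TGFbi+RT over RT, with the SE from edgeR, and none passed edgeR's threshold, so "higher" and "lower" describe the values only.

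Among the genes lower in TGFbi+RT, Ndp, which encodes norrin, a secreted ligand of the Wnt receptor Fzd4, had the smallest p of all genes. It was counted at 1.26, 1.10 and 1.11 CPM in TGFbi+RT and 2.81, 4.95 and 4.64 CPM in RT. The groups do not overlap, TGFbi+RT lay within a narrow range, and the log2 fold change was -1.83 ± 0.28 (adjusted p = 0.314 by edgeR, 0.0016 by DESeq2). Ndp was also lower in TGFbi tumors (0.703, 0.718 and 0.970 CPM) than in Sham tumors (1.79, 2.05 and 2.01 CPM). Nrep, a neuronal regeneration protein, stood at 50.6, 54.6 and 37.2 CPM in TGFbi+RT and 90.9, 88.0 and 88.2 CPM in RT. All RT tumors lay close together and well above the TGFbi+RT tumors, with a log2 fold change of -0.91 ± 0.16. Ext2, a glycosyltransferase that builds heparan sulfate chains, was counted at 74.2, 76.5 and 70.3 CPM in TGFbi+RT and 109, 105 and 117 CPM in RT (-0.59 ± 0.11). The same step was seen without radiation, with 75.01, 70.0 and 84.7 CPM in TGFbi and 110, 111 and 116 CPM in Sham.

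The remaining 9 of the 12 lower genes named by the smallest p were Tceal8, Armcx4, Ttyh3, Sbk1, Ubqln2, Kif3c, Mageh1, Zfp862-ps and Klhl22. Their log2 fold changes were smaller in size than that of Ndp and their adjusted p by edgeR ran up to 0.435. Ubqln2, a ubiquitin-binding shuttle to the proteasome, stood at 41.7, 53.7 and 57.1 CPM in TGFbi+RT and 80.6, 76.1 and 82.5 CPM in RT. Kif3c, a kinesin motor subunit, stood at 17.6, 20.5 and 22.4 CPM in TGFbi+RT and 28.9, 35.9 and 46.9 CPM in RT. Neither gene's groups overlap. DESeq2, run on the same counts from which they were chosen, called all 12 of these lower genes. Of the 12, 5 (Ndp, Tceal8, Armcx4, Ubqln2 and Mageh1) lie on chromosome X, which holds 517 of the 16017 genes tested. In the inhibitor contrast without radiation, 7 of the 12 were again lower in every TGFbi tumor than in every Sham tumor, against 7.88% of all genes. Genes with the smallest p once TGFbi+RT replicate 3 was left out included Eya2, a transcriptional coactivator and phosphatase (41.1, 56.5 and 63.2 CPM in TGFbi+RT, 75.5, 91.2 and 97.9 CPM in RT), and Gpd1l, a glycerol-3-phosphate dehydrogenase homolog (27.2, 26.3 and 35.0 CPM in TGFbi+RT, 45.8, 41.8 and 43.9 CPM in RT).

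**Figure D1:**
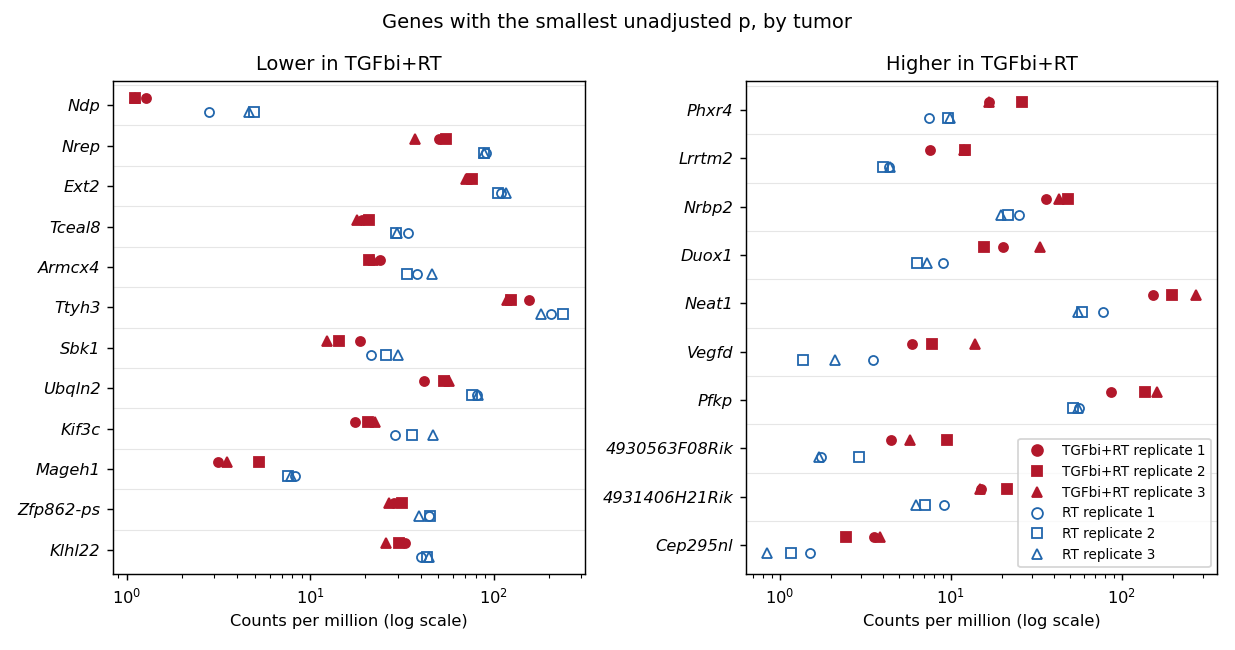
CPM on a log axis in each of the 3 TGFbi+RT tumors (filled red) and the 3 RT tumors (open blue) for the 12 lower genes and the 10 higher genes with a symbol that had the smallest unadjusted p. In every gene shown the groups do not overlap, which was required for inclusion; Ndp is at 1.10 to 1.26 CPM in TGFbi+RT and 2.81 to 4.95 CPM in RT.

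The 12 genes higher in TGFbi+RT with the smallest p included noncoding transcripts, a glycolytic enzyme, a lymphangiogenic ligand and an oxidase. Neat1, a nuclear noncoding RNA that forms paraspeckles, stood at 152, 198 and 272 CPM in TGFbi+RT and 77.8, 58.8 and 55.4 CPM in RT, a log2 fold change of 1.70 ± 0.35. Vegfd, a ligand of the lymphatic receptor Flt4, stood at 5.95, 7.71 and 13.9 CPM in TGFbi+RT and 3.49, 1.36 and 2.11 CPM in RT (1.98 ± 0.41). Both genes were separated in all 6 tumors, with TGFbi+RT replicate 3 the highest. Duox1, an oxidase that makes hydrogen peroxide at epithelial surfaces, stood at 20.1, 15.7 and 33.1 CPM in TGFbi+RT and 9.04, 6.31 and 7.24 CPM in RT (1.60 ± 0.31). Duox1 was higher with the inhibitor in unirradiated tumors as well, at 32.1, 26.9 and 23.1 CPM in TGFbi and 10.1, 7.78 and 5.19 CPM in Sham, and the difference between the inhibitor contrasts was -0.23 on the log2 scale.

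Pfkp, the platelet-type phosphofructokinase of glycolysis, was counted at 86.3, 137 and 160 CPM in TGFbi+RT and 56.3, 51.7 and 55.8 CPM in RT. The RT tumors lay within a few CPM of each other and the log2 fold change was 1.23 ± 0.26. Lrrtm2, a synaptic adhesion protein, stood at 7.51, 12.0 and 12.0 CPM in TGFbi+RT and 4.37, 4.00 and 4.43 CPM in RT (1.30 ± 0.24). Nrbp2, a pseudokinase, stood at 35.9, 48.4 and 43.0 CPM in TGFbi+RT and 25.1, 21.5 and 19.7 CPM in RT (0.94 ± 0.18). Lrrtm2 and Nrbp2 had nearly the same fold change without TGFbi+RT replicate 3, at 1.20 and 0.94. The other higher genes were Cep295nl, 3 further noncoding genes (Phxr4, 4930563F08Rik and 4931406H21Rik) and 2 identifiers with no symbol. DESeq2, run on the same counts from which these genes were chosen, called all 12 higher genes, and edgeR's adjusted p for them ran up to 0.409. Slc7a11, the cystine transporter that supplies glutathione synthesis, was among the oxidative stress genes at 28.4, 17.9 and 17.1 CPM in TGFbi+RT and 5.49, 5.97 and 4.99 CPM in RT (1.95 ± 0.45).

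Many genes of the hypoxia response and glycolysis were higher in TGFbi+RT than in RT, with and without replicate 3, though not higher than in Sham when summed. Cells short of oxygen stabilize HIF1 alpha, which binds hypoxia response elements and raises glucose transporters, glycolytic enzymes, Vegfa and carbonic anhydrase 9. Of 27 genes listed and tested, 23 were higher in TGFbi+RT and 4 lower, and the median log2 fold change was 0.40. In 12 of the 27 all TGFbi+RT tumors lay above all RT tumors, against 7.66% of all genes, and in 0 all lay below. Leaving out TGFbi+RT replicate 3 gave a median of 0.42 and 16 separated genes, against 12.3% of all genes. At an unadjusted p under 0.05 edgeR held 7 of the 27, and DESeq2 called 2, Pfkp and Car9. TGFbi+RT replicate 2 had the highest value of the 6 tumors for 9 of the 12 separated members, and without that tumor the list's median was 0.23.

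Car9, the carbonic anhydrase that acidifies the space around hypoxic cells, stood at 7.07, 9.91 and 5.63 CPM in TGFbi+RT and 2.37, 1.09 and 1.12 CPM in RT (2.29 ± 0.54). Slc2a1, the basal glucose transporter, stood at 128, 228 and 134 CPM in TGFbi+RT and 73.8, 79.0 and 82.8 CPM in RT (1.05 ± 0.35). Both were separated, with replicate 2 the highest. The members named next were chosen after their values were seen. Ankrd37, a known HIF1 target, stood at 5.43, 8.58 and 5.46 CPM in TGFbi+RT and 2.50, 2.44 and 2.25 CPM in RT. Vegfa, the vascular growth factor, stood at 255, 510 and 281 CPM in TGFbi+RT and 125, 101 and 170 CPM in RT. Egln3, an oxygen-sensing prolyl hydroxylase that marks HIF1 alpha for decay, stood at 97.7, 168 and 124 CPM in TGFbi+RT and 55.5, 40.5 and 68.9 CPM in RT. These 3 genes were separated as well. Ndrg1, Pfkfb3, Hk2 and Bnip3 were likewise separated, as were the glycolytic enzymes Eno1 and Pfkl. The groups overlapped for the enzymes Pgk1 and Pkm: Pgk1 ranged from 63.4 to 153 CPM in TGFbi+RT and from 68.6 to 101 CPM in RT, and Pkm from 908 to 1632 CPM in TGFbi+RT and from 1101 to 1679 CPM in RT. Summed over the list the groups overlapped, at 5382, 6684 and 4820 CPM in TGFbi+RT and 3907, 4338 and 5208 CPM in RT. The sums were 5391, 6165 and 5416 CPM in TGFbi and 7778, 7314 and 7691 CPM in Sham. Every TGFbi+RT and RT tumor thus lay below every Sham tumor. Pfkp averaged 128 CPM in TGFbi+RT, 54.6 in RT, 115 in TGFbi and 117 in Sham. In the same order Slc2a1 averaged 163, 78.6, 171 and 202 CPM, and Car9 7.54, 1.53, 3.03 and 4.46 CPM. RT had the lowest mean for these genes.

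Promoters of 4 separated members are printed to show where the core of the hypoxia response element lies in them. The sequences are RefSeq promoter windows on GRCm38.p6, from 250 bases before to 50 bases after the annotated start, 5′ to 3′ on the strand of the gene, and capitals mark each ACGTG or GCGTG and their reverse complements CACGT and CACGC. The first of these also lies within the E-box CACGTG, which other factors bind.
Car9, chr4:43506776-43507075, plus strand: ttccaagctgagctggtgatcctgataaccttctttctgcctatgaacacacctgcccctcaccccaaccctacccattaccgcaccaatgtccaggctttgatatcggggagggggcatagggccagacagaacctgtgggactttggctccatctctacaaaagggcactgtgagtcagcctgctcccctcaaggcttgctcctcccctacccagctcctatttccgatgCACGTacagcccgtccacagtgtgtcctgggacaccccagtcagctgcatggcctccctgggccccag
Pfkp, chr13:6648722-6649021, minus strand: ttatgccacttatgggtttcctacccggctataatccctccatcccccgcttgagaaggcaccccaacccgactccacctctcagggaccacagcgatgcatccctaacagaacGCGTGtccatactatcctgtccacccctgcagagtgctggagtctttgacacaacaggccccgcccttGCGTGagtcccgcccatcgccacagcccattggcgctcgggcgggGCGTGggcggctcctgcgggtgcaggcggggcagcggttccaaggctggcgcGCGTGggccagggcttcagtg
Slc2a1, chr4:119108495-119108794, plus strand: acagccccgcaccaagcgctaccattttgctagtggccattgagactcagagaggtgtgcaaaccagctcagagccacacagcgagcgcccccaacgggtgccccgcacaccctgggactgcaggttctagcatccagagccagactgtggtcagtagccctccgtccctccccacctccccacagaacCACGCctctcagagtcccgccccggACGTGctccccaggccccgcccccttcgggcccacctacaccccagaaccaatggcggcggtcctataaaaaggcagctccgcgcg
Ankrd37, chr8:45999801-46000100, minus strand: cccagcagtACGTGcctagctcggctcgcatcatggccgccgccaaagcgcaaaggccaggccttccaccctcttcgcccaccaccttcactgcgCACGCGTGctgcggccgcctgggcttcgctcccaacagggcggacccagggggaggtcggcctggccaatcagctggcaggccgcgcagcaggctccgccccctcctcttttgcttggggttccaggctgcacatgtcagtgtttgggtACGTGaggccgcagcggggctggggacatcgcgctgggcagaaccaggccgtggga
Car9 held 1 match close to its start, Slc2a1 2, and Pfkp and Ankrd37 4 each. Over the 39 promoter windows that RefSeq gave for the listed genes, 31 (79.5%) held at least 1 match, against 14380 of 32851 windows of all genes (43.8%). The list was made of known hypoxia and glycolysis genes, and base content was not matched, so these shares do not bear on TGFbi+RT against RT. A match describes the letters only, and binding was not measured.

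For 23 of the 27 genes the fold change was above 0 with the inhibitor in irradiated tumors and below 0 without radiation, a pattern known from these data when the list was chosen. All 27 had a negative log2 fold change in TGFbi over Sham, with a median of -0.45, and in 11 every TGFbi tumor lay below every Sham tumor, against 7.88% of all genes. Vegfa stood at 164, 341 and 243 CPM in TGFbi and 588, 392 and 489 CPM in Sham. The difference between the inhibitor contrasts, irradiated minus unirradiated, was above 0 for 26 of 27 members with a median of 0.79, against 0.03 over all genes. edgeR's unadjusted p for that difference was under 0.05 for 8 members, against 3.8% of all genes, and none passed after adjustment. In the triple group, 2 of 27 members lay above the RT range in replicate 1, which carries the code A2301, 3 in replicate 2 and 22 in replicate 3, which carry A2304. The shares over all genes were 20.2%, 37.2% and 25.7%. Below the RT range lay 8, 21 and 1 of the 27, against 20.6%, 39.0% and 28.9% of all genes. Replicates 2 and 3, which share a code, were thus far apart. With library code as a term, an adjustment that rests on the triple group alone, the list's median was 0.63.

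**Figure D2:**
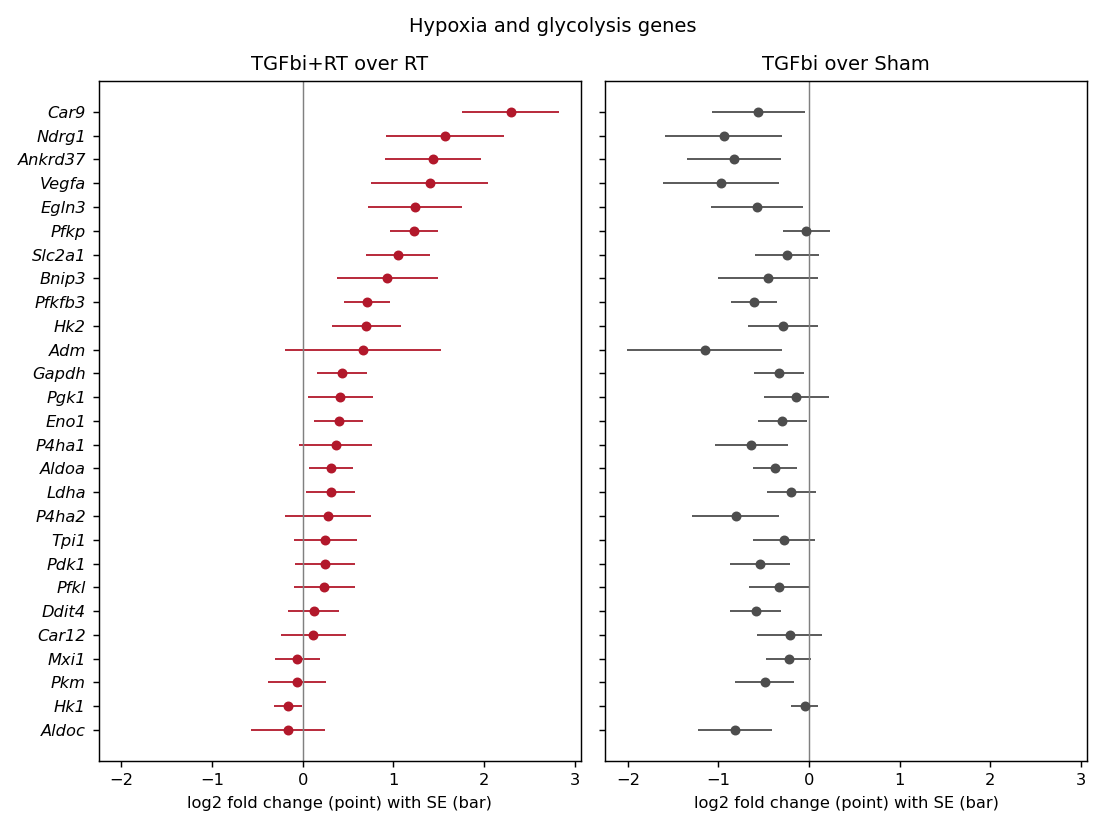
Log2 fold change (points) with its SE (bars) for the 27 hypoxia and glycolysis genes, in TGFbi+RT over RT on the left and TGFbi over Sham on the right, 3 tumors per group. On the left 23 of 27 points lie above 0 and on the right all 27 lie below 0.

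Transcripts of the TGFb pathway itself had a median fold change near 0. Of 21 ligand, receptor and SMAD genes, 10 were higher and 11 lower in TGFbi+RT (median log2 fold change -0.05). In 5 of the 21 (23.8%) all TGFbi+RT tumors lay below all RT tumors, against 8.29% of all genes, and in 1, Smad2, all lay above. The 5, named after their values were seen, were Smad3, its partner Smad4, the coreceptor Eng, and Ltbp1 and Ltbp3, which hold latent TGFb in the matrix. Smad3, the main signal transducer, stood at 115, 112 and 81.5 CPM in TGFbi+RT and 123, 139 and 142 CPM in RT (-0.39 ± 0.17). The ligand Tgfb1 ranged from 41.1 to 110 CPM in TGFbi+RT and from 36.3 to 80.3 CPM in RT (0.45 ± 0.46), and Tgfbr2 from 70.5 to 227 CPM in TGFbi+RT and from 50.7 to 203 CPM in RT (0.36 ± 0.66). Both were highest in TGFbi+RT replicate 3, and both fold changes were below 0 without it (-0.01 and -0.18). Tgfbr1 stood at 66.1, 74.1 and 88.4 CPM in TGFbi+RT and 91.3, 69.6 and 64.5 CPM in RT (0.02 ± 0.36). The groups overlapped for Tgfb1, Tgfbr1 and Tgfbr2.

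Among 25 TGFb target and feedback genes, 10 were higher and 15 lower, with a median of -0.03 in irradiated tumors and -0.56 in TGFbi over Sham. With 1 tumor left out the irradiated median ran from -0.31 to 0.41. The list's sums were 4707, 3257 and 6375 CPM in TGFbi+RT and 9309, 2655 and 2524 CPM in RT. They were 3205, 3039 and 4746 CPM in TGFbi and 11810, 2319 and 2375 CPM in Sham. Replicate 1 was thus far above the others in both RT and Sham. The irradiated median was 0.41 without RT replicate 1. No fit left out Sham replicate 1, so its part in the median of TGFbi over Sham was not tested. Pmepa1, a feedback inhibitor of SMAD signaling, stood at 96.7, 59.6 and 117 CPM in TGFbi+RT and 180, 126 and 186 CPM in RT (-0.85 ± 0.42). Fstl3, a secreted activin antagonist, stood at 1.34, 1.57 and 1.28 CPM in TGFbi+RT and 2.62, 2.31 and 3.30 CPM in RT (-0.97 ± 0.46). These were the 2 targets of the list with every TGFbi+RT tumor below every RT tumor, 8.0% of it, against 8.29% of all genes. The list thus held no more such genes than the whole. Tgfbi, which encodes a matrix adhesion protein, stood at 26.2, 34.5 and 69.6 CPM in TGFbi+RT and 51.6, 15.3 and 8.29 CPM in RT (0.79 ± 0.67), and Bhlhe40, also a hypoxia target, at 160, 261 and 167 CPM in TGFbi+RT and 146, 129 and 135 CPM in RT (0.52 ± 0.21). For comparison, the 1 gene (0.00624%) that edgeR called in TGFbi over Sham was Fbln7, a secreted matrix glycoprotein, at 3.69, 3.19 and 4.69 CPM in TGFbi and 21.8, 25.4 and 18.5 CPM in Sham. In the irradiated tumors, where it was looked up after its value was seen, Fbln7 stood at 15.2, 12.3 and 9.64 CPM in TGFbi+RT and 22.1, 19.8 and 17.004 CPM in RT (-0.67 ± 0.27).

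Matrix genes of activated fibroblasts could not be ranked between the groups, because 1 tumor in each group set the values. Summed over 24 genes they reached 5788, 3518 and 9863 CPM in TGFbi+RT and 15900, 3063 and 2643 CPM in RT. The median log2 fold change was -0.10 with all tumors, -0.81 without TGFbi+RT replicate 3 and 1.20 without RT replicate 1, and 0 of 24 genes were separated. Pericyte and smooth muscle markers had a median of -0.66 over 13 genes, with 0 separated. Without TGFbi+RT replicate 3 it was -0.88, with 6 separated below, against 13.2% of all genes. Without TGFbi+RT replicate 2 it was -0.26, and without RT replicate 1 it was 0.03. Kcnj8, a potassium channel subunit of pericytes, stood at 1.86, 2.12 and 4.43 CPM in TGFbi+RT and 24.6, 4.89 and 3.72 CPM in RT. Endothelial markers had a median of -0.17 over 18 genes, which was -0.54 without TGFbi+RT replicate 3 and 0.56 without RT replicate 1, and their sums were 466, 363 and 843 CPM in TGFbi+RT and 1131, 484 and 320 CPM in RT. BMP ligands, antagonists and ID genes had a median of 0.18 over 17 genes, and of -0.19 without TGFbi+RT replicate 3. Of these 17, 2 were separated below, against 8.29% of all genes. Bmp7, a ligand of that family whose groups overlap, stood at 124, 136 and 68.2 CPM in TGFbi+RT and 124, 156 and 197 CPM in RT.

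Immune genes had the highest medians, and their values were far higher in TGFbi+RT replicate 3 than in replicates 1 and 2. All 28 type I interferon response genes were higher in TGFbi+RT (median log2 fold change 2.08). By edgeR 16 of them had an unadjusted p under 0.05, against 5.83% of all genes. Summed over the list they reached 662, 441 and 3015 CPM in TGFbi+RT and 488, 273 and 307 CPM in RT, so replicate 2 lay within the RT range. In 6 of 28 every TGFbi+RT tumor lay above every RT tumor, against 7.66% of all genes. The median without replicate 3 was 0.90, with 6 separated, against 12.3% of all genes. Mx1, annotated in the mouse as a transcribed pseudogene, stood at 7.29, 6.84 and 33.4 CPM in TGFbi+RT and 2.68, 1.76 and 1.41 CPM in RT (3.01 ± 0.98). Oas2 and Oas3, which make the activator of RNase L, were separated too: Oas3 stood at 17.4, 11.2 and 69.7 CPM in TGFbi+RT and 6.61, 1.63 and 1.48 CPM in RT (3.33 ± 1.13). Without replicate 3 the log2 fold changes of Mx1, Oas2 and Oas3 were 1.86, 1.81 and 2.14.

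Interferon gamma and MHC class I genes were higher in 24 of 24 cases with a median of 1.90, which was 0.28 without replicate 3. Of these, 7 were separated above, against 7.66% of all genes. Nlrc5, the transactivator of MHC class I, stood at 53.3, 87.6 and 251 CPM in TGFbi+RT and 41.3, 36.4 and 29.3 CPM in RT (1.87 ± 0.59). Iigp1, an interferon-induced GTPase, stood at 25.2, 17.3 and 616 CPM in TGFbi+RT and 11.2, 4.21 and 2.18 CPM in RT. Cd274, which encodes PD-L1, stood at 11.2, 10.2 and 185 CPM in TGFbi+RT and 6.05, 2.44 and 2.39 CPM in RT (4.23 ± 1.33, and 1.57 without replicate 3). In all 3 genes the groups do not overlap and replicate 3 lay far above replicates 1 and 2. The triple group again differed from tumor to tumor: 4, 28 and 20 of the 28 type I interferon genes lay above the RT range in its replicates 1, 2 and 3. Of all genes 20.2%, 37.2% and 25.7% did so.

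Chemokines that draw T cells through Cxcr3 and Ccr4 followed the same course. Cxcl9 stood at 7.59, 5.59 and 449 CPM in TGFbi+RT and 2.18, 0.814 and 1.33 CPM in RT (6.72 ± 2.12, and 2.18 without replicate 3). Cxcl10 stood at 6.32, 5.43 and 201 CPM in TGFbi+RT and 2.43, 2.92 and 2.67 CPM in RT (4.73 ± 1.54, and 1.14 without replicate 3). Ccl22, a dendritic cell product that binds Ccr4, stood at 3.65, 2.28 and 28.4 CPM in TGFbi+RT and 0.748, 0.204 and 0.141 CPM in RT (4.91 ± 1.23, and 2.98 without replicate 3). Of 14 chemokines listed, 9 had enough counts to be tested, and all 9 were higher. Of these, 4 were separated with and without replicate 3, against 7.66% and 12.3% of all genes. Cx3cr1, the fractalkine receptor of monocytes and macrophages, went the other way, at 11.2, 18.6 and 5.29 CPM in TGFbi+RT and 60.7, 50.0 and 27.1 CPM in RT (-1.97 ± 0.55). Ccl8, a chemokine of monocytes, stood at 78.1, 33.8 and 385 CPM in TGFbi+RT and 32.1, 7.94 and 2.39 CPM in RT.

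Genes of killer lymphocytes were near the detection limit in RT tumors. Of 19 cytotoxic effectors listed, 10 had enough counts to be tested. All 10 were higher, with a median of 4.97 (2.04 without replicate 3). Of these, 5 were separated, against 7.66% of all genes. The count filter can pass a gene through the group where it is high, so this sign and share are partly built in. The list's sums were 22.2, 12.9 and 308 CPM in TGFbi+RT and 9.85, 5.16 and 5.06 CPM in RT. Ncr1, a receptor of natural killer cells, stood at 1.12, 1.10 and 18.4 CPM in TGFbi+RT and 0.0624, 0 and 0 CPM in RT. Gzmb, the granule protease, stood at 1.41, 1.10 and 56.2 CPM in TGFbi+RT and 0.686, 0 and 0 CPM in RT. Prf1, the pore-forming perforin, stood at 2.23, 0.629 and 51.8 CPM in TGFbi+RT and 0.561, 0.136 and 0 CPM in RT. In RT these genes were read in 1 or 2 libraries, and the floor of 3 counts over the group is 0.0667 CPM there. T cell markers were higher in 19 of 22 genes (median 2.05, and 0.64 without replicate 3), but their summed levels overlapped, at 271, 281 and 443 CPM in TGFbi+RT and 304, 259 and 345 CPM in RT. Cd2, a T cell adhesion receptor, stood at 0.670, 0.865 and 5.54 CPM in TGFbi+RT and 0.374, 0.136 and 0 CPM in RT. Checkpoint and regulatory T cell genes were separated in 7 of 14, with and without replicate 3, against 7.66% and 12.3% of all genes. Tigit, an inhibitory receptor of that list, stood at 1.04, 0.157 and 1.53 CPM in TGFbi+RT and 0.125, 0 and 0 CPM in RT.

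**Figure D3:**
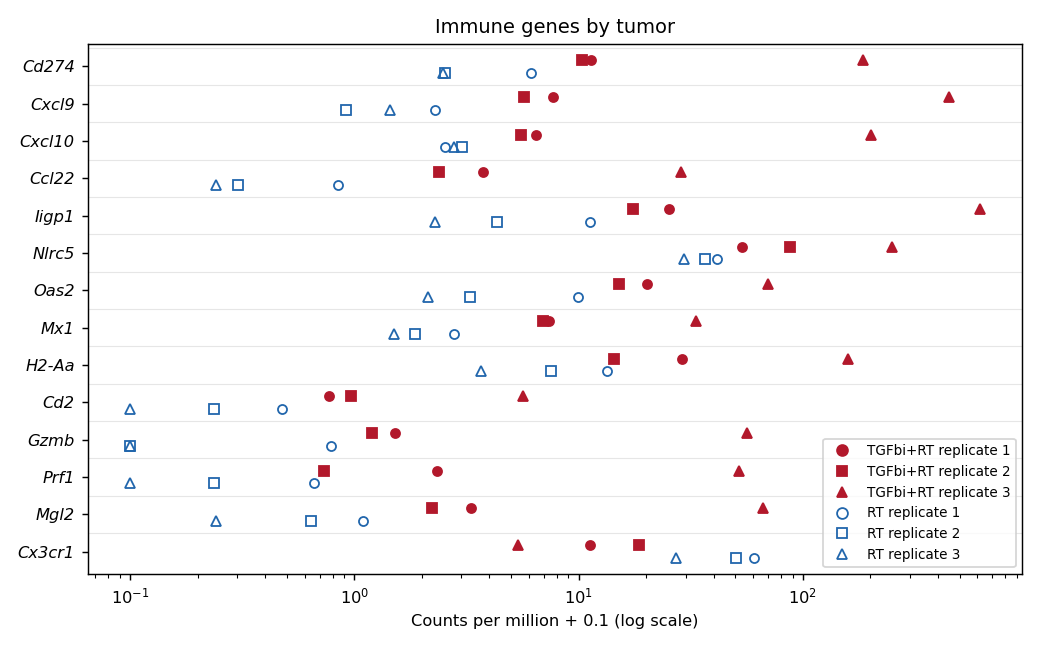
CPM plus 0.1 on a log axis in each TGFbi+RT tumor (filled red) and each RT tumor (open blue) for 14 immune genes. TGFbi+RT replicate 3 (filled triangle) is the highest in 13 of them, with Cxcl9 at 449 CPM, and the lowest for Cx3cr1, at 5.29 CPM.

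Summed MHC class II, macrophage and dendritic cell markers were each highest in TGFbi+RT replicate 3. MHC class II genes were higher in 8 of 8, with a median of 2.98 (1.35 without replicate 3). Of these, 4 were separated, against 7.66% of all genes. H2-Aa, an MHC class II chain, stood at 28.7, 14.2 and 159 CPM in TGFbi+RT and 13.2, 7.40 and 3.58 CPM in RT, and H2-Eb1 at 27.2, 12.7 and 151 CPM in TGFbi+RT and 11.0, 7.46 and 2.39 CPM in RT. Macrophage markers were higher in 20 of 21 with a median of 0.93, which was 0.09 without replicate 3, and 0 were separated. Their sums, 1448, 1246 and 4336 CPM in TGFbi+RT and 2880, 840 and 464 CPM in RT, show both TGFbi+RT replicate 3 and RT replicate 1 as high. Dendritic cell markers were separated in 3 of 16, against 7.66% of all genes. Mgl2, a lectin of dendritic cells and macrophages, stood at 3.20, 2.12 and 66.1 CPM in TGFbi+RT and 0.998, 0.543 and 0.141 CPM in RT (5.37 ± 1.44, and 2.22 without replicate 3). Ear2, a ribonuclease of eosinophils, stood at 2.68, 0.315 and 17.1 CPM in TGFbi+RT and 0.125, 0.136 and 0 CPM in RT. It shares sequence with other members of its gene family, so its reads may be split among them. Monocyte and neutrophil markers were higher in 12 of 13, with a median of 1.74 (1.01 without replicate 3). Of these 13, 2 were separated above, against 7.66% of all genes. The defining neutrophil gene Ly6g, of the same list, was at 0 in all 6 tumors. B and plasma cell markers were separated in 0 of 6 and complement genes in 1 of 17, against 7.66% of all genes. Their medians were 0.75 and 1.44, or -0.06 and 0.46 without replicate 3.

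**Figure D4:**
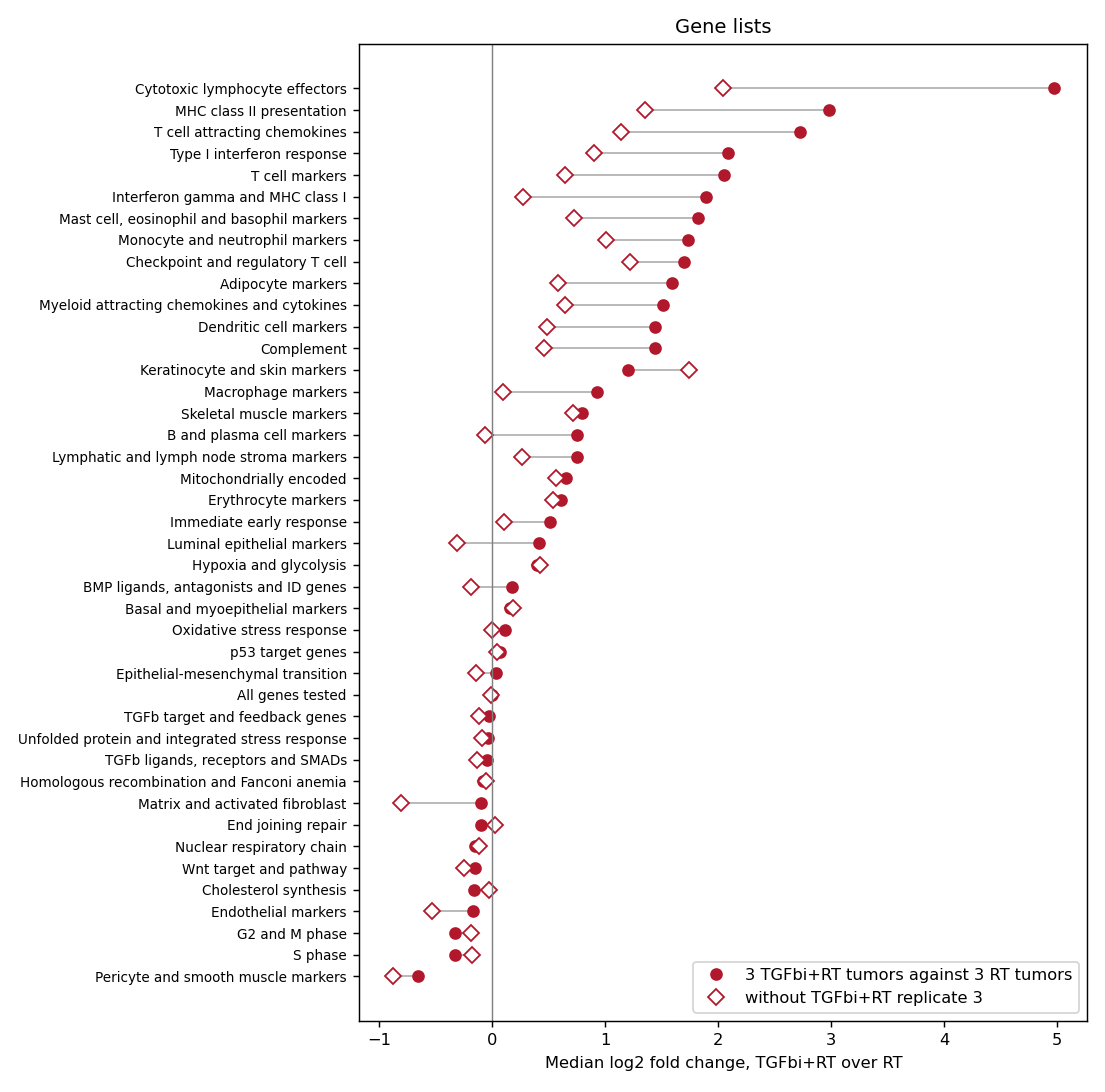
Median log2 fold change, TGFbi+RT over RT, of all genes tested and of the 41 gene lists, with all 6 tumors (filled circles) and without TGFbi+RT replicate 3 (open diamonds). Cytotoxic effectors move furthest when that tumor is left out (4.97 and 2.04). Other immune lists move less, as for checkpoint genes (1.70 and 1.22), and lists outside the immune ones move too, as for adipocyte markers (1.59 and 0.59). Hypoxia and glycolysis genes stay in place (0.40 and 0.42).

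Noncoding transcripts as a class were higher in TGFbi+RT, and this did not rest on replicate 3. Of 721 annotated long noncoding RNA genes tested, 600 were higher and 121 lower, and the median log2 fold change was 0.52, against -0.02 over 14259 protein-coding genes. Every TGFbi+RT tumor lay above every RT tumor in 25.1% of the noncoding genes, against 6.09% of the protein-coding genes, and below in 1.53% against 8.94%. Without replicate 3 the median was 0.54. The share of all counts on such genes was 1.18%, 1.55% and 1.56% in TGFbi+RT and 0.972%, 0.838% and 0.871% in RT, so the groups do not overlap. Leaving out Malat1, Xist and Neat1, which hold many of these counts, the share was 0.550%, 0.539% and 0.488% in TGFbi+RT and 0.403%, 0.400% and 0.412% in RT. Malat1, an abundant nuclear RNA chosen here after its values were seen, stood at 3436, 5654 and 6811 CPM in TGFbi+RT and 3082, 2207 and 2106 CPM in RT (1.10 ± 0.36).

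The part of the library code in this result was not tested. TGFbi and Sham tumors share the code A2301, and there the same 721 genes had a median of 0.32 in TGFbi over Sham, with 18.2% separated above, against 7.43% of all genes. In the triple group, 42.9% of the noncoding genes lay above the RT range in replicate 1, which has the code A2301, against 29.5% and 32.9% in replicates 2 and 3 with the code A2304. Over all genes those shares were 20.2%, 37.2% and 25.7%. With library code as a term, an adjustment that rests on the triple group alone, the median was 0.24, against 0.04 over all genes. The strand setting of the counting is not given in the sources used here, and many of these genes overlap others. Among the 323 with no other gene on their stretch the median was 0.38 and 17.03% were separated above, against 7.66% of all genes. With library code as a term the median of these 323 was -0.02. Their higher values did not remain under that adjustment, which has the same limit.

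**Figure D5:**
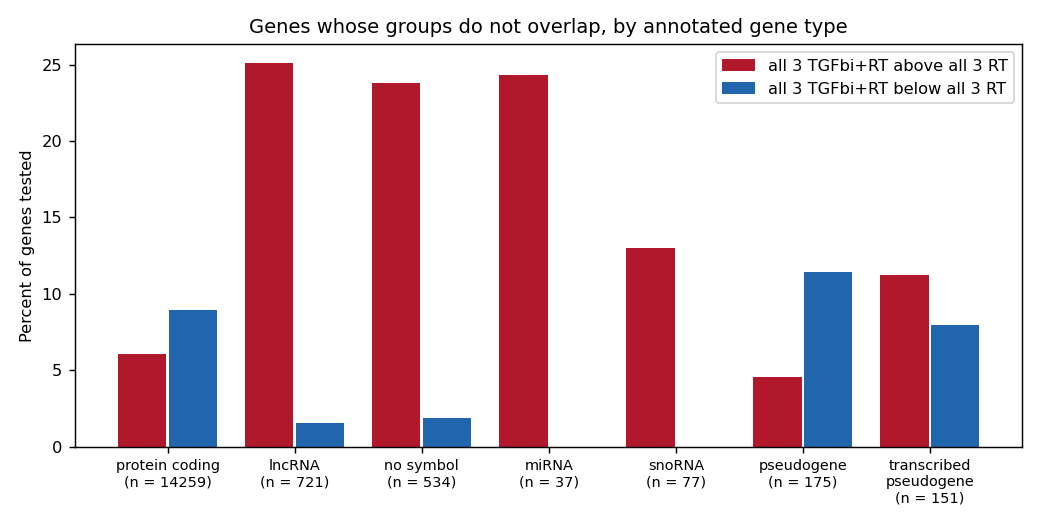
Percent of tested genes, by annotated gene type, in which all 3 TGFbi+RT tumors lay above all 3 RT tumors (red) or below them (blue). Long noncoding RNA genes are at 25.1% above and 1.53% below, and protein-coding genes at 6.09% above and 8.94% below.

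Mitochondrial transcripts split by genome of origin. All 13 mitochondrially encoded genes were higher in TGFbi+RT, with a median of 0.66 (0.57 without replicate 3). Of these, 6 were separated above, against 7.66% of all genes. ND2, a complex I subunit, stood at 1452, 2829 and 2145 CPM in TGFbi+RT and 1299, 1191 and 1322 CPM in RT (0.75 ± 0.31). The mitochondrial share of all counts was 2.89%, 5.27% and 4.62% in TGFbi+RT and 3.07%, 2.49% and 2.59% in RT, with replicate 1 inside the RT range. The 26 nuclear respiratory chain genes had a median of -0.15, with 21 lower and 6 separated below, against 8.29% of all genes. Ndufb5, a nuclear complex I subunit, stood at 36.8, 34.2 and 35.2 CPM in TGFbi+RT and 40.5, 49.3 and 47.8 CPM in RT (-0.37 ± 0.14).

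Proliferation genes were slightly lower and DNA repair genes overlapped. All 24 S phase genes and all 24 G2 and M phase genes were lower in TGFbi+RT, each list with a median of -0.33 (-0.18 without replicate 3). Only 2 and 1 of them were separated, against 8.29% of all genes. Members of such lists vary together, so the shared sign is a single observation. Summed G2 and M phase levels were 3646, 4107 and 2813 CPM in TGFbi+RT and 3446, 4769 and 5092 CPM in RT, with RT replicate 1 inside the TGFbi+RT range. Plk1, a mitotic kinase, was the separated member, at 78.1, 67.0 and 46.4 CPM in TGFbi+RT and 79.3, 105 and 107 CPM in RT (-0.60 ± 0.25). Homologous recombination and Fanconi anemia genes had a median of -0.08 over 22 genes and end joining genes -0.10 over 20. In each list 1 was separated above, against 7.66% of all genes. These were Rad51b, a factor of homologous recombination (5.80, 9.91 and 6.57 CPM in TGFbi+RT, 4.24, 4.68 and 4.36 CPM in RT), and Dclre1c, the Artemis nuclease (22.2, 26.4 and 37.6 CPM in TGFbi+RT, 20.4, 15.5 and 13.3 CPM in RT). The p53 target genes had a median of 0.07 over 26 genes, in tumors labelled as lacking p53. Cdkn1a, the cell cycle inhibitor p21, stood at 30.1, 40.5 and 95.1 CPM in TGFbi+RT and 34.9, 14.9 and 15.0 CPM in RT (1.35 ± 0.67), and the groups overlap.

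Markers of other cell types that a tumor piece can hold were read in both groups. Skeletal muscle markers were separated above in 3 of 6, against 7.66% of all genes. Their sums were 27.8, 22.3 and 32.3 CPM in TGFbi+RT and 12.7, 15.1 and 16.2 CPM in RT. Ttn, the giant sarcomere protein, stood at 11.7, 10.1 and 15.2 CPM in TGFbi+RT and 5.74, 5.84 and 6.39 CPM in RT (1.04 ± 0.36). The muscle myosins Myh1, Myh2 and Myh4 were at 0 in all RT tumors. Adipocyte markers summed to 214, 145 and 809 CPM in TGFbi+RT and 264, 105 and 100 CPM in RT, and erythrocyte markers to 525, 659 and 621 CPM in TGFbi+RT and 964, 118 and 140 CPM in RT. Keratinocyte markers summed to 29.8, 78.4 and 13.6 CPM in TGFbi+RT and 29.4, 21.7 and 21.2 CPM in RT. Their part in the results above was not tested. Luminal epithelial markers had a median of 0.41 over 19 genes (-0.31 without replicate 3) and basal markers 0.16 over 18.

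Whether the inhibitor acted differently with and without radiation was asked with the interaction contrast, (TGFbi+RT minus RT) minus (TGFbi minus Sham). edgeR called 0 genes, with 608 at an unadjusted p under 0.05, and limma-voom called 0 with 566. DESeq2 called 3 (0.0187%), all above 0 with an adjusted p of 0.0162 each, and the 1 described here was named after its values were seen. Tox, a transcription factor of T cell differentiation and exhaustion, stood at 1.34, 4.80 and 2.90 CPM in TGFbi+RT and 0.624, 0.204 and 0.422 CPM in RT, and at 0.616, 0.239 and 0 CPM in TGFbi and 4.65, 11.2 and 0.584 CPM in Sham.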

How the data were processed

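Whole tumors were profiled by total RNA sequencing after ribosomal RNA depletion, per the labels' protocols. The deposited values are raw read counts per gene in 1 table of 27179 Entrez identifiers. The build is GRCm38 per the submitters' processing notes, and the aligner settings, strand setting and annotation release are not given in the sources used here. Symbols were matched through RefSeq for 25275 identifiers.

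Members and gene lists were chosen with earlier results of these data known. Genes with enough counts (edgeR's filterByExpr over 5 groups, 16017 genes) were scaled by TMM. They were fitted in edgeR 4.0.16 (R 4.3.3) to 15 tumors with 1 mean per group, leaving 10 residual degrees of freedom. That filter can pass a gene through 1 group where it is high. Signs and separated shares of lists with low counts are thus partly built in. The contrast was TGFbi+RT minus RT, with Benjamini-Hochberg adjustment and a threshold of 0.05. DESeq2 1.42.0 and limma 3.58.1 (voom) were alternatives. The procedure was tested on simulated data. CPM values use TMM-scaled library sizes. The SE is the size of the log2 fold change divided by the square root of F. Lists are described by counts and medians, with no set test. A gene is separated when the CPM of all tumors of one group lie above those of the other.

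Genes are named by rule: up to 12 in each direction with the smallest p among separated genes of average log2 CPM 1 or more, up to 6 in each direction from the fit without TGFbi+RT replicate 3, up to 3 of each list, and 10 set genes. Some genes that these rules name are not reported here. The labels number tumors as separate animals' tumors and state no other tie, and same-numbered tumors did not vary together.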

Additional observations from a re-analysis of the deposited data

How the results depend on the processing

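For the comparison of TGFbi+RT with RT, edgeR called 0 genes under every alternative of scaling, filter, samples and terms that was run, including each of the 6 tumors left out in turn (range 0 to 0), and DESeq2 called 63. For the inhibitor's effect in irradiated minus unirradiated tumors, DESeq2 called 3 genes and edgeR 0 without TGFbi+RT replicate 3. With the replicate number as a replicate block edgeR called 0 genes and 31 lists had a median above 0, against 28 of 41 without it. The numbers do not pair the tumors, since correlations of same-numbered deviations were -0.363, 0.304 and -0.481. Lists with a median above 0 ranged from 24 to 32 with 1 tumor left out, and 17 of the 41 changed sign when at least 1 of the 6 was left out. Counting the noncoding genes as a list, 37 of 42 medians moved by more than the spread between tumors under at least 1 alternative. With library code as a term, the median of type I interferon genes was 4.46, of matrix genes 1.95, of pericyte markers 0.52, of endothelial markers 0.95 and of B cell markers -1.41. Separated genes ranged from 1678 to 3216 higher and from 1647 to 3148 lower with 1 tumor left out. They numbered 2027 higher and 2137 lower without the resubmitted libraries. They numbered 1989 higher and 2013 lower without the pair of tumors that stood apart over all 15 (TGFbi+RT replicate 3, triple replicate 2), an alternative chosen after seeing the data. Fewer tumors overlap less often, which is the construction of these counts. Of 87 genes in the text, 83 kept their direction under every alternative. Tgfb1 was at -0.0233 without the resubmitted libraries and -0.0142 without that pair of tumors, Tgfbr1 at -0.101 and -0.0932, and Tgfbr2 at -0.195 and -0.183. With 1 tumor left out their lowest and highest values were -0.0140 and 0.89 for Tgfb1, -0.0936 and 0.16 for Tgfbr1, -0.183 and 1.18 for Tgfbr2, and -0.0805 and 0.22 for Trp53. The cause was not tested. Depth limits genes of killer lymphocytes, where the RT floor is 0.0667 CPM.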

Other observations

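Values outside the comparison's gene groups are given here without explanation. By chromosome, genes on X had a median log2 fold change of -0.15 over 517 genes in TGFbi+RT over RT, with 3.48% separated above and 14.3% below. Genes on chromosome 4 had a median of 0.12 over 993 genes, with 10.1% separated above and 2.72% below, and in TGFbi over Sham a median of -0.17, with 2.82% above and 15.5% below. Chromosomes 9 and 19 had 14.9% and 15.1% of their genes separated below in TGFbi+RT. In TGFbi over Sham those shares were 11.3% on chromosome 9 and 1.84% on chromosome 19. Over all genes 8.29% were separated below in TGFbi+RT and 7.88% in TGFbi over Sham.

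Among small RNA classes read by this library type, 74 of 77 snoRNA genes and 32 of 37 miRNA genes were higher in TGFbi+RT than in RT, with medians of 0.51 and 0.70. In TGFbi over Sham their medians were 0.92 and 0.51. Pseudogenes had a median of -0.16 over 175 genes in TGFbi+RT over RT and -0.17 in TGFbi over Sham.

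The triple-treated tumors were not part of the contrast, though they shared the fit's estimate of the spread. They lay above the RT range for 8, 11 and 8 of the 12 higher genes named by the smallest p (replicates 1, 2 and 3). They lay below it for 11, 12 and 9 of the 12 lower genes. Over all genes tested 20.2%, 37.2% and 25.7% lay above that range and 20.6%, 39.0% and 28.9% below. The named genes were chosen for standing apart from the RT tumors, so larger shares than over all genes are built in. For all separated genes the shares were 53.8%, 68.5% and 58.6% above and 53.1%, 75.3% and 66.6% below. Replicate 1 has the library code of the TGFbi+RT tumors, and replicates 2 and 3 have the code of the RT tumors.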
